A study of Mus musculus with 82 samples.

Results

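The endoplasmic reticulum (ER) chaperones described here were 10 genes picked by name from 55401 genes in the count tables: Hspa5, Hsp90b1, Dnajb9, Sdf2l1, Calr, Canx, Pdia4, Pdia6, Creld2 and the transcription factor gene Xbp1. Of the 34819 genes with a count in at least 1 library, 14653 were tested after 24 h and 15796 after 48 h, and all 10 members were among them at both times. Poly(A) RNA was sequenced from primary aortic vascular smooth muscle cells (aVSMC) of C57BL/6 mice that had been passaged in a growth medium with serum and EGF. All cultures, controls included, were first kept for 24 h in DMEM without serum and supplements, and the stimuli were then added in the same medium. EGF, the ligand of the EGF receptor, was used at 10 µg/L, AngII (angiotensin II) at 10 nM and U46619, a stable thromboxane A2 analogue that activates the thromboxane prostanoid receptor, at 1 µM. After 24 h there were 7 groups of 6 libraries, which shared 6 mouse numbers. They were the control, the 3 single stimuli, U46619 with EGF, AngII with EGF, and the triple combination EGF+AngII+U46619. After 48 h there were 40 libraries from 10 culture sets in 2 sequencing batches. Of these sets, 5 held control, EGF, U46619 and EGF+U46619 cultures and the other 5 held control, EGF, AngII and EGF+AngII cultures, so control and EGF had n = 10 and the other 4 groups n = 5.

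Secreted and membrane proteins fold in the ER. Hspa5 (BiP) and Hsp90b1 (GRP94) are its Hsp70 and Hsp90 chaperones, Calr and Canx hold folding glycoproteins, and protein disulfide isomerases such as Pdia4 and Pdia6 form and rearrange disulfide bonds. When unfolded proteins accumulate, the sensors IRE1, PERK and ATF6 start the unfolded protein response. IRE1 splices Xbp1 mRNA, and spliced XBP1 and cleaved ATF6 act on ER chaperone genes, in part through a promoter element named the ER stress element (ERSE). Smooth muscle cells secrete collagens and other matrix proteins and so depend on this folding machinery.

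The ERSE consists of CCAAT, 9 bases of any kind and CCACG. It was searched on both strands of the RefSeq promoter windows of GRCm38.p6, which span 250 bases before to 50 bases after each start. All 10 members had a window, and 6 of them held the element (Hspa5, Hsp90b1, Calr, Canx, Pdia6 and Creld2), compared with 39 of all 32851 windows (0.119%). The matches are shown since they are the sequence feature that most members share, with CCAAT and CCACG in capitals, 5 flanking bases on each side, and the strand that reads from CCAAT to CCACG:
Hspa5 (chr2:34772020-34772048, plus strand): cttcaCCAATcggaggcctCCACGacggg
Hsp90b1, far match (chr10:86705633-86705661, minus strand): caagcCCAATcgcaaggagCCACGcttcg
Hsp90b1, near match (chr10:86705528-86705556, plus strand): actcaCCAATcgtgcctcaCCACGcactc
Calr (chr8:84847070-84847098, plus strand): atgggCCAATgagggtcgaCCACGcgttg
Canx (chr11:50325795-50325823, minus strand): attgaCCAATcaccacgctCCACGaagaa
Pdia6 (chr12:17266486-17266514, plus strand): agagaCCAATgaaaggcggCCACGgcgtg
Creld2 (chr15:88819515-88819543, minus strand): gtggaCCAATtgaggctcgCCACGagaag

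The 7 matches lay upstream of the start, from the far match of Hsp90b1 at −212 to −194 to the match of Hspa5 at −65 to −47. Those of Hspa5, Canx and Pdia6 and the far match of Hsp90b1 ran with the gene, while those of Calr and Creld2 and the near match of Hsp90b1 ran against it. No exact match stood in the windows of Pdia4, Dnajb9, Sdf2l1 and Xbp1, which says only that these letters were not there. The parts of the element are common by themselves: CCAAT was found in 9 of 10 members and in 37.4% of all windows, and CCACG in 9 of 10 and in 32.8%. Both overlap the ERSE where it is present. The related ERSE-II and the motif TGACGTGG were found in 0 members (0.0365% and 0.676% of all windows), and CACGT in 4 members (19.6%).

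**Figure D1:**
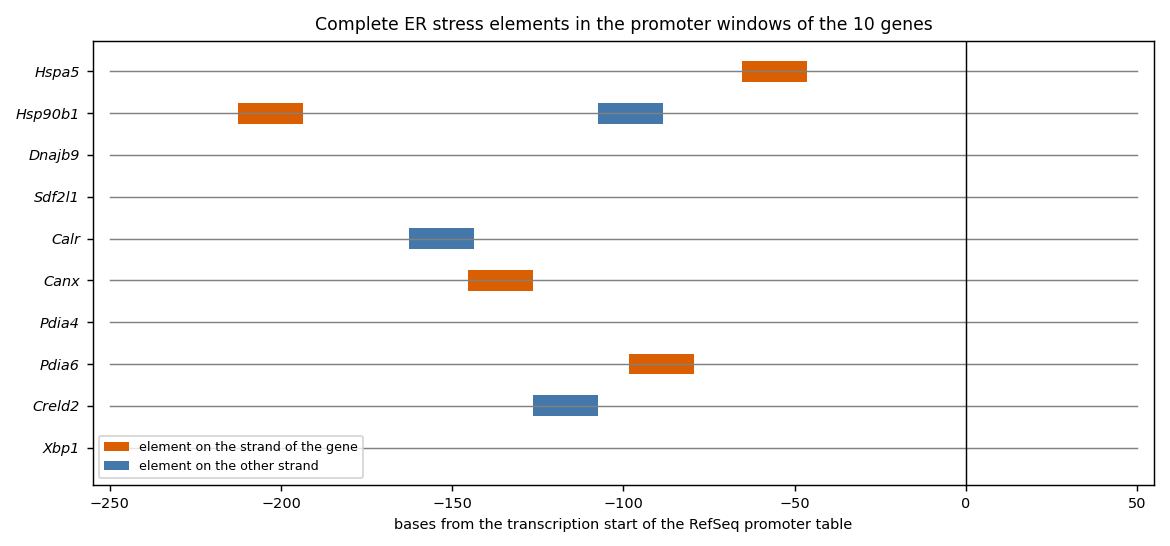
Position of ERSE matches in the promoter windows of the 10 members, in bases from the RefSeq start (x axis, 250 before to 50 after it), with a row for each gene and the direction relative to the gene marked. The 7 matches belong to 6 genes, and Hsp90b1 holds a pair of them.

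In GRCm38 the members are spread over 8 chromosomes: Hspa5 (chr2:34771970-34777547, + strand), Hsp90b1 (chr10:86690209-86705509, − strand), Dnajb9 (chr12:44205559-44210326, − strand), Sdf2l1 (chr16:17130138-17132383, − strand), Calr (chr8:84841850-84846934, − strand), Canx (chr11:50293961-50325673, − strand), Pdia4 (chr6:47796141-47813430, − strand), Pdia6 (chr12:17266545-17284770, + strand), Creld2 (chr15:88819646-88826683, + strand) and Xbp1 (chr11:5520659-5525893, + strand). Counts were summed over the exons of a gene, untranslated regions included. Of the exonic bases of Hsp90b1, 10.3% are shared with a pseudogene transcript on the opposite strand, and 1.34% of those of Pdia6 with Atp6v1c2. How strand was treated in counting is not given in the sources used here, so reads in these stretches could not be assigned with certainty. The count of Xbp1 does not separate its spliced from its unspliced mRNA.

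Library totals were 16483529 to 20818809 counts at 24 h and 19936925 to 33916114 at 48 h. Values are given as FPM, fragments per 1000000 counts of the TMM-scaled library. A gene was a differentially expressed gene (DEG) if its false discovery rate (FDR) was under 0.05 in both edgeR and DESeq2 and it reached a mean of 5 FPM in a compared group. Markers of other cells were present at very different levels between mice. In the 24 h controls the summed endothelial markers spanned 2.16 to 1865 FPM and the summed macrophage and leukocyte markers 20.9 to 114 FPM. Of 8 contractile smooth muscle markers 2 were listed at 0, as was every gene on chromosome 9, X or Y, and the sum of the others spanned 1256 to 5380 FPM. At 48 h the control library of culture set B2-4 stood apart. Its deviations from the group means correlated with those of the other 3 libraries of its set at r = −0.28, while the other 57 of 60 same-set pairs exceeded 0.1.

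Per kilobase of exon, the only scale on which levels of different genes are set side by side here, Calr was the highest member in the 24 h controls with 378 ± 58.6 FPM per kb (SD, n = 6). It was followed by Hspa5 with 196 ± 38.9 and Hsp90b1 with 146 ± 49.6. The range of Calr (316 to 484) lay above that of Hspa5 (142 to 253), whereas all further neighbours in the order overlapped. Pdia6 (94.9 ± 20.3), Pdia4 (92.7 ± 5.58), Canx (86.2 ± 17.7) and Xbp1 (62.9 ± 14.5 FPM per kb) formed the middle. Creld2 (43.1 ± 7.36), Sdf2l1 (30.9 ± 11.9) and Dnajb9 (18.1 ± 5.06 FPM per kb) were the lowest. In the 48 h controls (n = 10) Calr, Hspa5 and Hsp90b1 again led with 487 ± 43.8, 294 ± 31.8 and 285 ± 61.02 FPM per kb, and Dnajb9 was again last with 25.9 ± 7.29.

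After 24 h with U46619, 3 of the 10 members rose: the Hsp90 chaperone Hsp90b1, the disulfide isomerase Pdia6 and the lectin chaperone Canx. None fell. Their share has to be read against a broad response, since 26.6% of all genes tested were DEGs under U46619 (1870 higher and 2023 lower). The log2-fold change was above 0 for 8 of 10 members, with a median of 0.35 over the members and −0.06 over all genes tested. An unadjusted edgeR p under 0.05 was reached by 8 members, compared with 44.1% of all genes. In these bulk libraries, fewer cells of a type and less RNA per cell cannot be told apart.

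Hsp90b1, the ER form of Hsp90, lay at 336, 575 and 913 FPM in the controls (lowest, median and highest) and at 530, 881 and 1352 FPM with U46619. All 6 U46619 cultures were above the control of the same mouse, although the groups overlapped and only 3 cultures exceeded the highest control. The log2-fold change was 0.64 ± 0.16 (SE, n = 6) with an edgeR FDR of 0.00312 and a DESeq2 FDR of 0.00157. Hspa5, the ER Hsp70 that also binds the stress sensors, was measured at 602, 799 and 1071 FPM in the controls and at 791, 1120 and 1393 FPM with U46619. It was higher in 5 of 6 mice, 4 cultures exceeding the highest control, but it missed the threshold (log2-fold change 0.36 ± 0.15, edgeR FDR 0.0599).

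The cofactors of Hspa5 did not behave alike. Sdf2l1, which is found in complexes of ER DnaJ proteins and Hspa5, spanned 17.8 to 50.7 FPM in the controls and 35.0 to 53.6 FPM with U46619. It was higher in 5 of 6 mice and was not a DEG (0.48 ± 0.20, edgeR FDR 0.0604). Dnajb9 (ERdj4), a DnaJ partner of Hspa5 that binds IRE1, had the opposite sign: its lowest, median and highest levels were 30.5, 48.4 and 60.0 FPM in the controls and 22.7, 37.8 and 53.8 FPM with U46619. It was lower in 5 of 6 mice with a log2-fold change of −0.32 ± 0.13 and was not called (edgeR FDR 0.06, DESeq2 FDR 0.0511).

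Of the lectin chaperones, membrane-bound Canx had 273, 434 and 483 FPM in the controls and 359, 531 and 647 FPM with U46619. It was higher in 6 of 6 mice (0.34 ± 0.13, edgeR FDR 0.0376, DESeq2 FDR 0.0396), and 4 cultures lay above the highest control. This call was the least firm of the 3, since it was kept in only 2 of 9 alternatives and was lost on leaving out mouse 1, 2, 4, 5 or 6 (edgeR FDR 0.0165 to 0.215 over the 9). Its soluble relative Calr had a log2-fold change of almost the same size (0.36 ± 0.16) but a wider spread, with an edgeR FDR of 0.0779. Calr spanned 909 to 1393 FPM in the controls and 1144 to 1695 FPM with U46619, and 5 of 6 mice had the higher value with U46619.

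Pdia6, a disulfide isomerase that also acts on IRE1, was measured at 290, 321 and 484 FPM in the controls and at 332, 470 and 790 FPM with U46619. All 6 mice had the higher value with U46619 (0.51 ± 0.13, edgeR FDR 0.004), although the groups overlapped. Pdia4 showed the tightest controls, 200 to 234 FPM, and 5 of 6 U46619 cultures lay above them, with a range of 223 to 334 FPM. Its log2-fold change was smaller, 0.29 ± 0.12, and missed the threshold with an edgeR FDR of 0.0717. Creld2, an ER protein with disulfide isomerase activity, had a value of 0.27 ± 0.14 (edgeR FDR 0.138). Xbp1, the transcription factor of the IRE1 branch, lay at 147 to 263 FPM in the controls and 135 to 241 FPM with U46619, higher in 3 and lower in 3 mice (−0.09 ± 0.11, edgeR FDR 0.577).

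**Figure D2:**
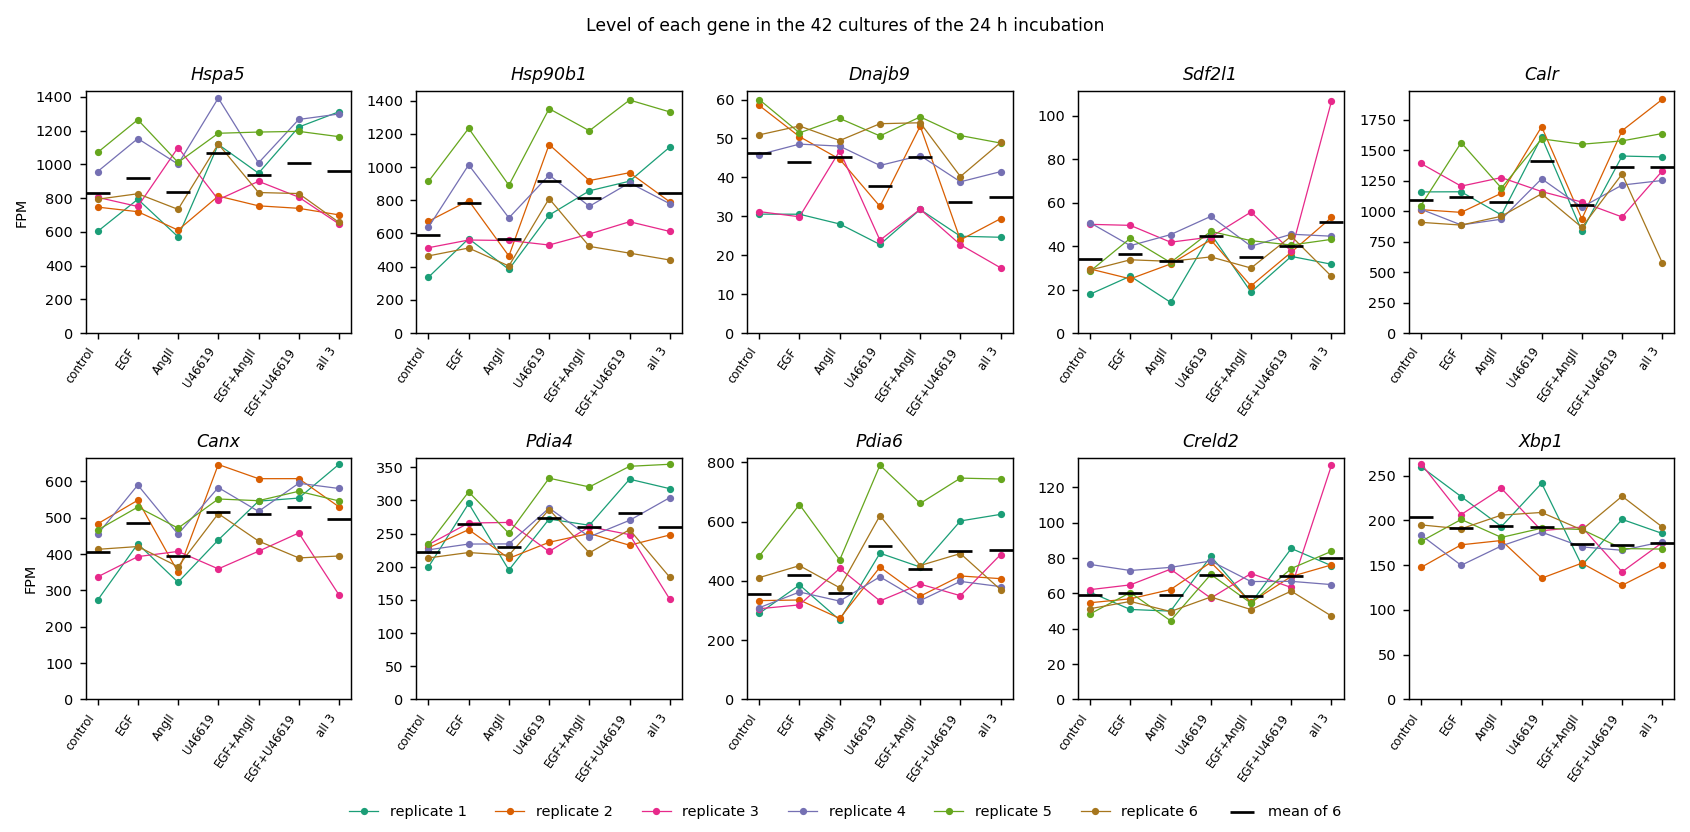
Level of each of the 10 members (y axis, FPM from 0, with its own scale in each panel) in the 7 groups at 24 h, with a point for each of 6 mice per group, lines that join the cultures of a mouse and a bar at the group mean. Hsp90b1 reached 1352 FPM with U46619 compared with 913 FPM in the highest control, and the groups of all members overlap.

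The mice differed in this response. The median difference over the 10 members between the U46619 culture and the control of the same mouse, on the log2(FPM + 0.5) scale, was 0.32 to 0.58 in 5 mice and −0.09 in mouse 3, where 3 of 10 members were above the control. The median over all genes tested was −0.03 in mouse 3 and −0.07 to −0.009 in the other 5 mice. Mouse 3 gave the lowest U46619 difference in 9 of 10 members. Without mouse 3, 8 members were called, Hspa5 (0.43, edgeR FDR 0.0165), Calr (0.49, edgeR FDR 0.0195), Pdia4 and Sdf2l1 (0.60, edgeR FDR 0.0159) joining Hsp90b1, Pdia6 and Canx on the higher side and Dnajb9 falling. Of all genes tested, 30.2% were called in that fit. Without any other mouse, 2 members were called, namely Hsp90b1 and Pdia6, compared with 16.6% to 25.9% of all genes. No member was called in a fit that left out the mouse term, compared with 7.08% of all genes.

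With EGF+U46619, 5 members were DEGs at 24 h, compared with 31.8% of all genes tested: Hsp90b1 (0.57 ± 0.16, edgeR FDR 0.00558), Pdia6 (0.47 ± 0.13, edgeR FDR 0.00558), Canx (0.39 ± 0.13, edgeR FDR 0.0155) and Pdia4 (0.32 ± 0.12, edgeR FDR 0.0362) rose, and Dnajb9 fell (−0.47 ± 0.13, edgeR FDR 0.00524). Dnajb9 was lower in 6 of 6 mice, with 22.7 to 50.7 FPM compared with 30.5 to 60.0 FPM in the controls. Mouse 2 had by far the largest difference, −1.27, and without it the call was lost, as was that of Canx without mouse 1 or 4, that of Pdia6 without mouse 1, and that of Pdia4 without any mouse but mouse 3. The median log2-fold change was 0.32 over the members and −0.05 over all genes.

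The triple combination EGF+AngII+U46619 also gave 5 DEGs among the members, compared with 33.1% of all genes tested. Hsp90b1 (0.51 ± 0.16, edgeR FDR 0.0127), Pdia6 (0.49 ± 0.13, edgeR FDR 0.00412), Sdf2l1 (0.55 ± 0.20, edgeR FDR 0.0251) and Creld2 (0.42 ± 0.14, edgeR FDR 0.0161) rose and Dnajb9 fell (−0.44 ± 0.13, edgeR FDR 0.00878). For Sdf2l1 the culture of mouse 3 stood far out with 107 FPM, compared with 26.1 to 53.2 FPM in the other 5, and for Creld2 the same culture had 133 FPM compared with 47.2 to 83.8 FPM. Both calls were lost without mouse 3, and each also without mouse 2 or mouse 5. The call of Sdf2l1 and that of Hsp90b1 were lost without mouse 1, and that of Dnajb9 without mouse 2. The mice did not all move alike: 6 to 8 of 10 members were above the control in mice 1, 2, 4 and 5, with a median difference of 0.18 to 0.74, but 4 of 10 in mouse 3 (−0.15) and 0 of 10 in mouse 6 (−0.13). Over all genes tested the median was −0.14 in mouse 3, near that of the members, 0.0003 in mouse 6, and −0.08 to −0.01 in mice 1, 2, 4 and 5. All comparisons with control share the same 6 control libraries.

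Stimulation without U46619 gave no DEG among the members at 24 h. With EGF, 0 of 10 were called by edgeR or DESeq2 alone or by both, compared with 0.0273% of all genes tested. An unadjusted p under 0.05 was reached by 1 member, compared with 17.7% of all genes. Hsp90b1 (0.38, edgeR FDR 0.208), Canx (0.26, edgeR FDR 0.286), Pdia4 (0.24, edgeR FDR 0.311) and Pdia6 (0.21, edgeR FDR 0.414) were each above the control in 6 of 6 mice. With AngII, 0 members were called, compared with 0% of all genes, 0 reached an unadjusted p under 0.05 in edgeR (0.478% of all genes), 0 were called by DESeq2 alone, and the median log2-fold change was −0.01. With EGF+AngII, 0 members were called (3.11% of all genes) and 3 had an unadjusted p under 0.05 (24.7% of all genes): Hsp90b1 (0.46, edgeR FDR 0.0852), Canx (0.34, edgeR FDR 0.102) and Pdia6 (0.28, edgeR FDR 0.188). DESeq2 alone called Hsp90b1 there, with an FDR of 0.0448.

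Direct comparisons between stimuli at 24 h separated few members. Against EGF, EGF+U46619 lowered Dnajb9 (−0.41 ± 0.13, edgeR FDR 0.0332), the only member called in that comparison, compared with 12.8% of all genes tested, and the call was lost without mouse 1, 2, 4 or 6. U46619 against EGF gave 0 called members by edgeR or DESeq2 (11% of all genes) and 2 with an unadjusted p under 0.05 (27.5% of all genes). In EGF+U46619 against U46619, EGF+AngII against EGF and the triple combination against EGF+U46619, 0 members and 0% of all genes were called, and 0 members had an unadjusted p under 0.05 in edgeR or an FDR under 0.05 in DESeq2. The interaction of EGF and U46619, which is the log2-fold change of the combination minus the sum of those of the single stimuli, was below 0 for all 10 members with a median of −0.21 (0.03 over all genes). None was called by either tool (0% of all genes), and 0 had an unadjusted p under 0.05 (3.14% of all genes). The term farthest from 0 among the 10 members was that of Hsp90b1 (−0.44 ± 0.23, unadjusted edgeR p = 0.0616, FDR 1).

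**Figure D3:**
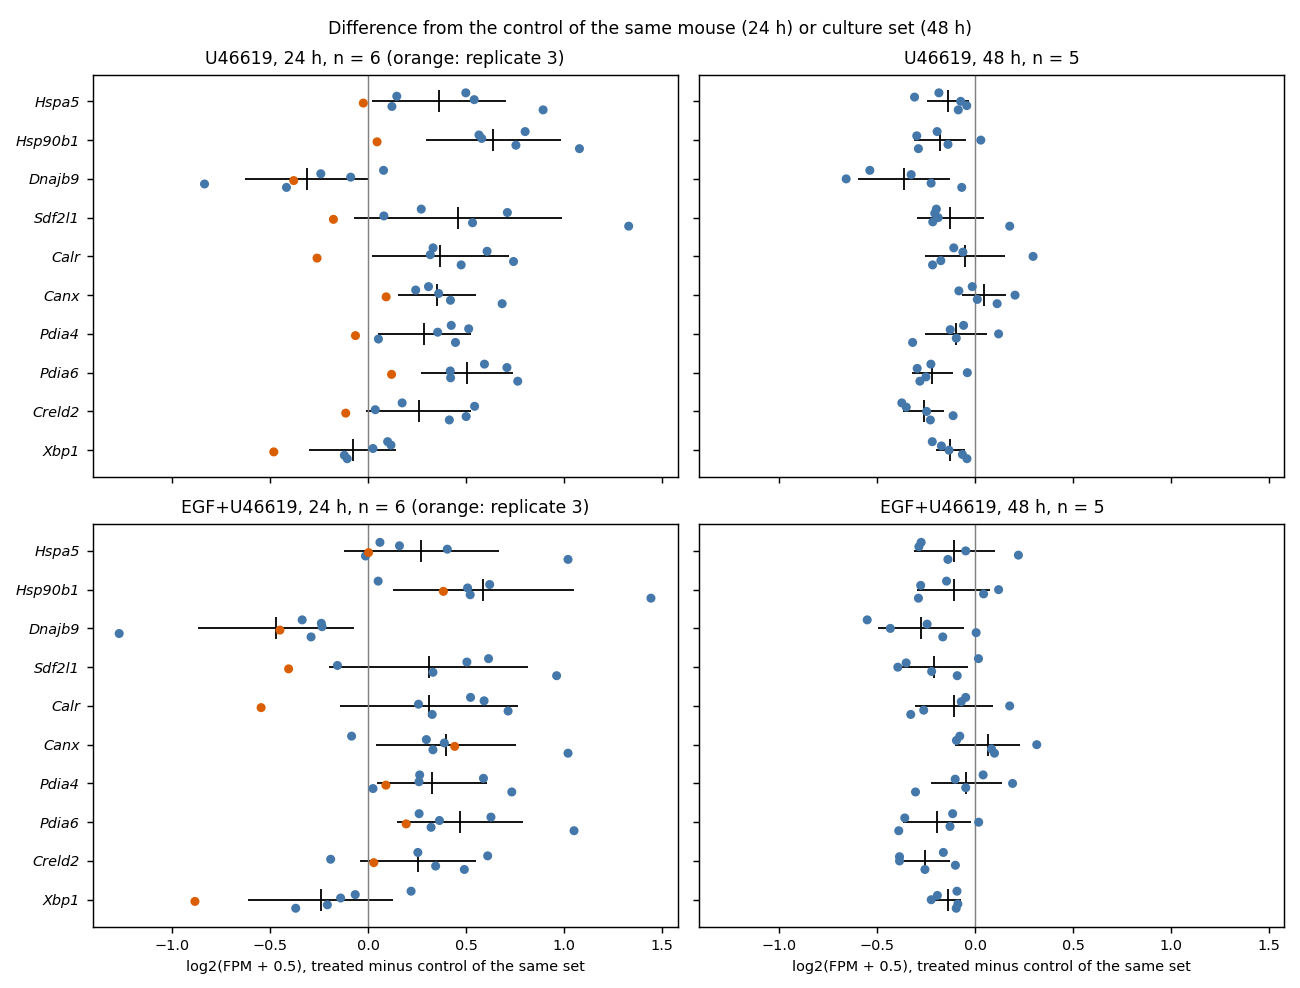
Difference from the control of the same mouse (24 h, n = 6) or culture set (48 h, n = 5) with U46619 and EGF+U46619 for the 10 members (x axis, log2(FPM + 0.5), treated minus control), with a point per culture, the mean ± SD, and mouse 3 in orange at 24 h. At 24 h Hsp90b1 and Pdia6 are above 0 in all 6 mice with both stimuli, whereas at 48 h Pdia6 is below 0 in all 5 sets with U46619.

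The wider ER system and heat shock proteins outside the ER were described at 24 h with U46619 by 8 gene lists. In these, 45 of 116 tested genes were DEGs (38.8%, compared with 26.6% of all genes). The list of cytosolic and mitochondrial heat shock proteins, which is not part of the ER, held 16 of the tested genes and 8 of the DEGs. Among other ER folding factors, 4 of 17 tested genes rose and 2 fell, with a median log2-fold change of 0.17. Hyou1, Manf and Ppib of this list are on chromosome 9 and were listed at 0. Ero1a and Ero1b were not found by name in the count tables, so nothing can be said of these genes. The membrane disulfide isomerase Tmx1 (0.53) and the Hspa5 cofactor Dnajb11 (0.46) rose, whereas Sil1, a nucleotide exchange factor of Hspa5, fell by 0.58 and Creld1, the relative of Creld2, by 0.44. Among the factors that act on collagen, 4 of 11 rose and 2 fell (median 0.21). The lysyl hydroxylase Plod3 (0.71) and the collagen galactosyltransferase Colgalt1 (0.57) rose, and Rcn3 (−0.68) and the prolyl hydroxylase family member P3h3 (−0.51) fell. In ER-associated degradation 4 of 18 rose, among them Nploc4 (0.39) and Ube2j1 (0.35), and 3 fell, among them the lectins Os9 (−0.54) and Erlec1 (−0.46).

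Of 7 stress sensors and ATF factors tested, only Atf6 was called. Mbtps1 and Mbtps2 of this list were listed at 0, so nothing can be said of them. Atf6, the sensor that is itself a transcription factor, rose by 1.15 ± 0.21 on the log2 scale (edgeR FDR 0.000118). Of 8 targets of the PERK branch, 4 rose and 0 fell: Chac1 (1.25), Atf3 (1.04), Atf4 (0.62), which encodes the main factor of this branch, and the phosphatase subunit gene Ppp1r15a (0.46). In the list of translocon, signal peptide and N-glycan enzymes 6 of 21 rose and 0 fell, with the signal peptidase subunit Spcs3 (1.19) and the glucosidase Mogs (0.51) in front. Without mouse 3, 10 of these 21 rose. In ER to Golgi transport 6 of 18 rose, with the cargo receptor subunit Mcfd2 (0.56) and the coat protein Sec13 (0.42) in front, and the KDEL receptor Kdelr1 fell by 0.46.

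The highest median of the lists, 0.55, was that of the cytosolic and mitochondrial heat shock proteins, of which 8 of 16 rose and 0 fell. The mitochondrial chaperonin Hspd1 (1.36) and the cytosolic Hsp90 form Hsp90aa1 (1.19) had the largest changes there. The other cytosolic relative of Hsp90b1, Hsp90ab1, was not called with U46619 (0.24, edgeR FDR 0.0755) but rose with EGF+U46619 (0.42). Hspa8, the cytosolic relative of Hspa5, is on chromosome 9 and was listed at 0. Without the mouse term, 5 of the 16 heat shock proteins, 2 of the 21 translocon, signal peptide and N-glycan genes, 1 ER to Golgi transport gene and Atf6 rose, and 2 genes of ER-associated degradation fell.

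**Figure D4:**
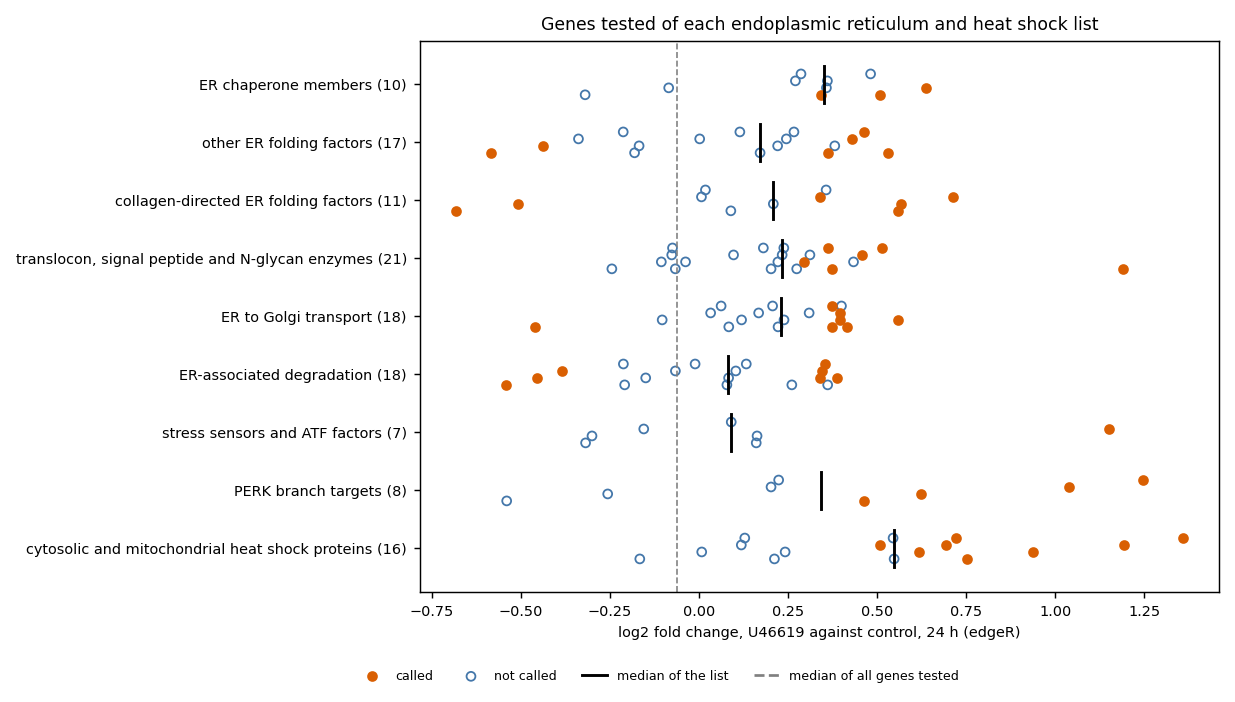
Log2-fold change with U46619 against control at 24 h (x axis, edgeR) of every tested gene of the 10 members and of 8 ER and heat shock lists (rows, number of tested genes in brackets), with DEGs filled and a bar at the list median. The dashed line is the median of all genes tested, −0.06, and the highest list median is 0.55.

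Markers of cell identity moved under U46619 as well. The summed contractile markers had a median of 2628 FPM in the controls and 11976 FPM with U46619. Of 6 tested, only 2 were called, Acta2 (2.05) and Lmod1 (0.84), and the median log2-fold change over the 6 was 0.25. The summed fibroblast markers had a median of 369 FPM (168.03 to 495) and 145 FPM (123 to 266), and 3 of 4 tested were lower. The endothelial sum had a median of 223 FPM (2.16 to 1865) and 170 FPM (1.98 to 1666) with 0 of 4 called. The macrophage and leukocyte sum had 74.5 FPM (20.9 to 114) and 36.4 FPM (23.3 to 76.6). Of its 3 tested markers 1 was higher and 1 lower, and their median log2-fold change was 0.63, opposite in sign to the change of the sum. The adipocyte sum had 1.65 FPM (0.0525 to 1024) and 0.487 FPM (0 to 463) with 1 of 3 lower. The part of these markers in the change of the chaperones was not tested.

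Genes with the ERSE were also described beyond the members. The 39 windows belong to 37 genes, 17 of which were tested at 24 h. The 6 members among them all had a log2-fold change above 0 with U46619, with 3 called and a median of 0.36. Of all genes tested, 26.6% were DEGs with U46619 (12.8% higher and 13.8% lower). Of the other 11 genes with the element, 2 were above 0, 0 rose and 3 fell, with a median of −0.28. Among these 11 were Dnajc3 (0.24 ± 0.16), Syvn1 (−0.21 ± 0.10) and Derl3 (−0.15 ± 0.60) of the ER lists, none of them called. The 3 that fell, named here after their values were seen, were Spats2l (−0.53), Acacb (−1.42) and Adcy3 (−0.69). No test was made of this difference, and the members were chosen as ER genes.

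After subtracting the mean of each mouse, the 24 h levels of the members were only partly correlated over the 42 libraries, which share mice and treatments. Of 45 pairs 16 had r above 0.5 and 11 had r below 0, with a median of 0.35. The extremes were Hsp90b1 with Canx (r = 0.92) and Dnajb9 with Sdf2l1 (r = −0.62). The lowest median r to the other members were those of Dnajb9 (−0.27) and Xbp1 (−0.04). At 48 h, over 40 libraries centred on the culture set, 30 of 45 pairs had r above 0.5 with a median of 0.56 and a maximum of 0.91 for Sdf2l1 with Creld2. There Dnajb9 and Xbp1 had median r of 0.41 and 0.60, whereas Canx had the lowest, −0.06, and was part of all 6 pairs below 0.

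Among 10597 other genes, the 5 whose 24 h pattern was most like the mean of the members were Pdia3 (r = 0.86), Dnajb11 (r = 0.83), Glipr2 (r = 0.79), Atf4 (r = 0.78) and Bdnf (r = 0.77). Pdia3 and Dnajb11 encode ER folding factors. In the 48 h libraries the same measure was 0.86 for Pdia3, 0.82 for Dnajb11 and 0.72 for Atf4, but −0.14 for Glipr2 and −0.52 for Bdnf. The sample sets of both times are separate, and no test was made.

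After 48 h no member was a DEG in any comparison. With U46619, 0 of 10 were called, compared with 3.7% of all genes tested, and with EGF+U46619 0 of 10, compared with 6.3%. The log2-fold change was above 0 in 1 of 10 members in both, with a median of −0.16 over the members and −0.03 over all genes. A single member, Dnajb9, had an unadjusted edgeR p under 0.05 with U46619 (21.9% of all genes), and 1 had it with EGF+U46619 (24.6% of all genes). DESeq2 alone called Dnajb9 with U46619 (FDR 0.0377) and no member with EGF+U46619.

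Dnajb9 lay at 61.5, 45.0, 37.9, 41.3 and 37.6 FPM with U46619 in sets B1-1 to B1-5, whose controls had 64.5, 52.7, 60.1, 51.9 and 54.8 FPM. It was lower than the control in 5 of 5 sets, and 4 of the 5 U46619 values were below the lowest of these 5 controls. Sets B1-1 and B1-4 carry the same mouse number in the labels, so by the labels counts of sets at 48 h are not counts of mice. The sets of the other batch had controls of 34.8 to 89.3 FPM, so that all 10 controls spanned the U46619 values. The log2-fold change was −0.61 ± 0.20 (edgeR FDR 0.0719). It was −0.30 ± 0.09 and called (FDR 0.0188) with the culture set as the block, −0.36 in the EGF/U46619 batch alone (FDR 0.0762) and −0.28 with the batch as a further term (FDR 0.356). With the culture set as the block, 9.79% of all genes tested were called.

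Creld2 was lower in 5 of 5 sets with U46619, by −0.26 ± 0.11 (SD) on the log2(FPM + 0.5) scale, and in 5 of 5 with EGF+U46619, by −0.26 ± 0.13. With U46619 its levels were 71.3, 70.1, 81.0, 74.7 and 55.3 FPM compared with 83.6, 75.9, 96.3, 95.5 and 71.8 FPM in the controls of sets B1-1 to B1-5, and the ranges overlapped. In the main fit it was not called (−0.27, edgeR FDR 0.319), but within the EGF/U46619 batch alone it was, with both stimuli. In that batch 10.9% of all genes tested were called with U46619 and 15.2% with EGF+U46619. Pdia6 was lower in 5 of 5 sets with U46619 (−0.22 ± 0.10, SD; edgeR FDR 0.427), at 570, 532, 424, 479 and 295 FPM compared with 694, 633, 436, 588 and 345 FPM. These values overlapped, but each set kept the same order.

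Hspa5 (−0.14 ± 0.11, SD) and Xbp1 (−0.13 ± 0.07, SD) were also lower in 5 of 5 sets with U46619, and Hsp90b1 (−0.18 ± 0.13, SD) in 4 of 5. Canx was near its controls (0.05 ± 0.11, SD), higher in 3 of 5. Hsp90b1 and Pdia6, above their controls in 6 of 6 mice at 24 h, were thus above them in 1 and 0 of 5 sets at 48 h. Cultures, sequencing runs and fits of the times were separate, so that this difference was not tested and time and batch cannot be told apart. Nor was the position below the control particular to U46619 in these 5 sets, whose stimuli share a control per set. With EGF alone, 1 to 3 of 10 members per set were above the control, with median differences of −0.17 to −0.06. With U46619 these values were 0 to 4 of 10 and −0.25 to −0.06.

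In the 8 lists of other ER and heat shock genes, 4 of 117 tested genes were DEGs with U46619 at 48 h (3.42%, compared with 3.7% of all genes) and 8 with EGF+U46619 (6.84%, compared with 6.3%). With U46619, Atf6 (0.87 ± 0.14, edgeR FDR 0.000825), Chac1 (0.88 ± 0.22, edgeR FDR 0.0162), Nploc4 (0.36) and the coat protein gene Sec24a (0.43, edgeR FDR 0.0499) rose, 1 each in the lists of stress sensors, PERK targets, ER-associated degradation and ER to Golgi transport. The other 4 lists had 0 DEGs there by the rule of both tools. With EGF+U46619, these 4 genes and also Hsp90ab1 (0.41, edgeR FDR 0.0104), Hspd1 (0.61), Mogs (0.27) and Spcs3 (0.43) rose. None of the list genes fell with either stimulus. The 48 h names were taken after their values were seen.

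EGF, AngII and EGF+AngII gave 0 called members at 48 h with both tools, compared with 0% of all genes in each comparison. No member had an unadjusted edgeR p under 0.05 with EGF or EGF+AngII (0.95% and 2.04% of all genes), and 1, Xbp1, did with AngII (p = 0.028), compared with 1.67% of all genes. The set B2-4 gave the highest difference in 9 of 10 members with EGF and in 10 of 10 with AngII and with EGF+AngII. Sdf2l1, for instance, had 33.2 FPM in the control of that set and 88.7, 94.3 and 90.0 FPM with EGF, AngII and EGF+AngII. Without B2-4 the mean difference of Sdf2l1 with AngII went from 0.19 ± 0.79 (SD, n = 5) to −0.14 ± 0.36 (n = 4), and that of Calr with EGF+AngII from 0.10 to −0.12.

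**Figure D5:**
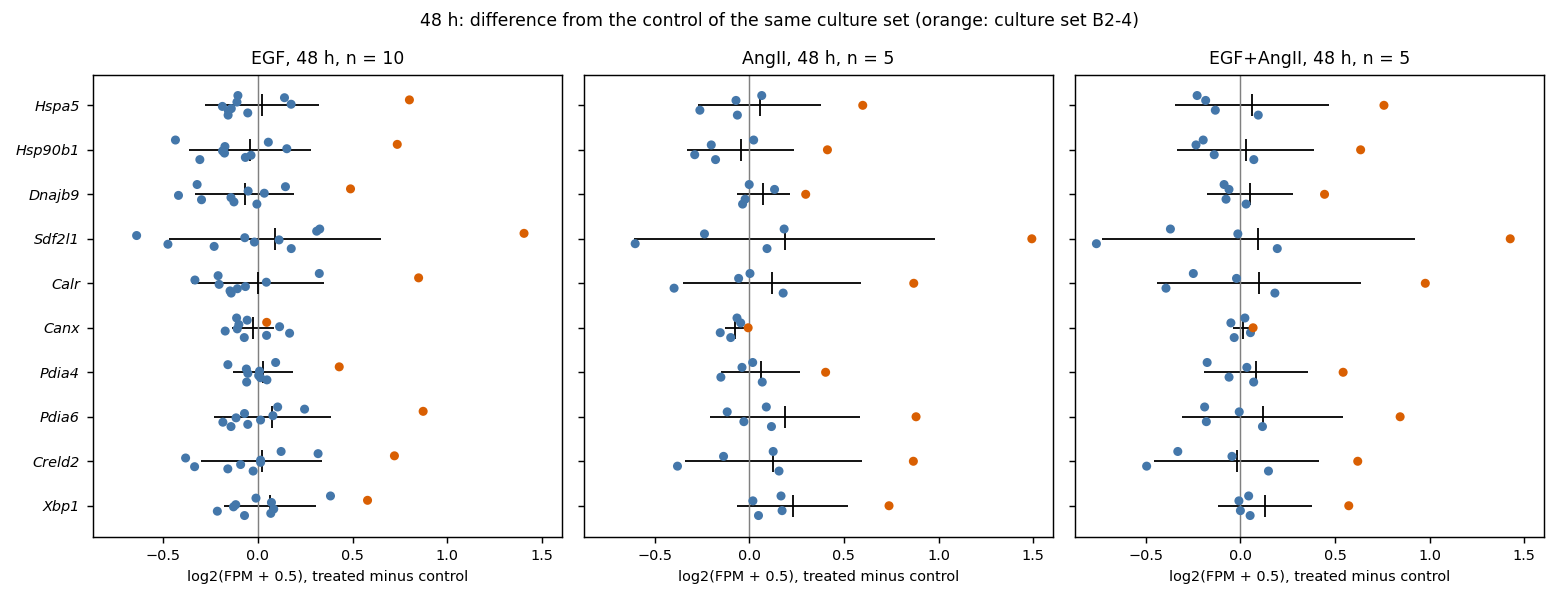
Difference from the control of the same culture set at 48 h with EGF (n = 10), AngII (n = 5) and EGF+AngII (n = 5) for the 10 members (x axis, log2(FPM + 0.5), treated minus control), with a point per set, the mean ± SD, and set B2-4 in orange. Apart from Canx, the members of set B2-4 lie above 0 in all 3 panels. With AngII the other 4 sets lie on both sides of 0 for 8 members, all below it for Canx and all above it for Xbp1.

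Direct comparisons at 48 h gave 0 called members with both tools in EGF+U46619 against EGF (4.43% of all genes tested), U46619 against EGF (2.96%), EGF+U46619 against U46619 (0%) and the interaction of EGF and U46619 (0%). The first and second of these had 2 members each with an unadjusted edgeR p under 0.05 (21.2% and 19.3% of all genes), and the others had 0. The log2-fold changes against EGF had medians of −0.21 with EGF+U46619 and −0.20 with U46619 over the members, and 1 of 10 was above 0 in each. Both U46619 groups came from the EGF/U46619 batch alone, whereas the EGF group pooled both batches in a fit without a batch term. That group includes set B2-4, where 10 of 10 members were above the control with EGF (median 0.73). Batch was thus not separated from stimulus in these medians.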

How the data were processed

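RNA-seq counts per gene were deposited as whole numbers for 42 libraries at 24 h and 40 at 48 h. Per the labels and methods, these counts were made by the authors from HISAT2 2.1.0 alignments (mm10) with featureCounts over exons, and multi-mapping reads were included. All genes of chromosomes 9, MT, X and Y were listed at 0. No 2 libraries of a group were identical.

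The whole table of each time point was fitted with edgeR 4.0.16 (quasi-likelihood test, TMM) and DESeq2 1.42.0 (Wald test) in R 4.3.3, with the mouse number of the labels and the treatment as terms, and p-values were Benjamini-Hochberg adjusted over all genes tested. For a DEG, both tools gave an FDR under 0.05, and it had a mean of at least 5 FPM in 1 group compared and passed filterByExpr at both times. The log2-fold changes, SE and unadjusted p are those of edgeR. Differences per culture used log2(FPM + 0.5). The scripts were tested on simulated data.

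At 24 h the mouse numbers paired the libraries: same-numbered libraries deviated together in 126 of 126 pairs (r from 0.40, median 0.78). At 48 h, 57 of 60 pairs within a culture set had r over 0.1. The labels number 5 mice for these 10 sets, whereas by the methods every replicate came from its own mouse.

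Members and lists were chosen with earlier results of these data known. Besides the members, each list allowed the 2 largest rises and falls among its DEGs with U46619 at 24 h to be named, or every DEG where there were at most 5, with 5 genes by likeness of pattern and the cytosolic relatives of members. Promoter windows came from RefSeq.

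Alternatives were each tool alone, DESeq2 size factors in edgeR, no FPM minimum, no filter on low counts, no mouse term, other blocks and the EGF/U46619 batch alone at 48 h, and fits without 1 mouse or 1 culture set at a time. Leaving out set B2-4 from the differences was added after the data were seen.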

Additional observations from a re-analysis of the deposited data

Results flagged for a closer look

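Of 130 groups of 5 to 10 libraries examined, 15 had a library far from the others of its group; chance flags about 1 in 20 groups, and the groups share libraries and genes. Culture set B2-4 at 48 h accounted for 10 of them, each time as the highest value. With EGF these were Calr (2316 FPM, nearest 1602), Pdia4 (420.3 FPM, nearest 325), Pdia6 (1061 FPM, nearest 704) and Sdf2l1 (88.7 FPM, nearest 53.5). With AngII they were Calr (2349 FPM, nearest 1453), Pdia4 (413 FPM, nearest 312), Sdf2l1 (94.3 FPM, nearest 45.2) and Creld2 (145 FPM, nearest 82.9). With EGF+AngII they were Hspa5 (2076 FPM, nearest 1347) and Calr (2531 FPM, nearest 1472).

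Set B1-3 was highest for Hsp90b1 with U46619 (1229 FPM, nearest 1045) and with EGF+U46619 (1309 FPM, nearest 1111) at 48 h. At 24 h mouse 5 was highest with EGF+AngII for Calr (1551 FPM, nearest 1076) and Pdia6 (661 FPM, nearest 452), and mouse 3 with EGF+AngII+U46619 for Sdf2l1 (107 FPM, nearest 53.2).

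Of 50 pairs of the same member and stimulus at both times, 1 had opposite directions in every culture: Pdia6 with U46619 exceeded its own control in 6 of 6 mice at 24 h (mean 0.50 on the log2 scale) and below the control of the same set in 5 of 5 at 48 h (−0.22). This difference was not tested.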

How the results depend on the processing

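Without the replicate block, 0 members were called in any comparison, while the number of all genes called went from 3893 to 1037 with U46619, from 4664 to 1826 with EGF+U46619, from 4849 to 2143 with the triple combination and from 1877 to 105 for EGF+U46619 against EGF. Leaving out 1 mouse at 24 h gave 2 to 8 called members with U46619, compared with 16.6% to 30.2% of all genes. It gave 2 to 6 with EGF+U46619 (23.2% to 33.3%) and 2 to 7 with the triple combination (25.8% to 35.3%). For EGF+U46619 against EGF it gave 0 to 1 (4.92% to 18.1%), and with EGF+AngII 0 to 1 (0% to 7.67%). Leaving out 1 culture set at 48 h gave 0 to 1 with U46619 (Dnajb9, without B2-4), compared with 0.906% to 4.61% of all genes. In the other comparisons the count stayed at 0. With no filter on low counts, 2 members were called with U46619, 3 with EGF+U46619 and 0 for EGF+U46619 against EGF at 24 h. In these fits 11%, 13.4% and 4.86% of all genes were called. DESeq2 alone called 1 member with EGF+AngII at 24 h and 1 with U46619 at 48 h. At 48 h, 1 member was called with U46619 with the culture set as the replicate block, compared with 9.79% of all genes. In the EGF/U46619 batch alone, 1 was called with U46619 (10.9% of all genes) and 1 with EGF+U46619 (15.2%). The cause was not tested. Over the 14 calls of a member and 9 alternatives each, 81 of 126 were kept, 45 lost and 0 changed sign. Another scaling shifted the median of all genes by −0.012 to 0.017. With 6 or fewer cultures per group, changes of the size of those of Calr or Pdia4 lay near the threshold.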

Other observations

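The mice contributed more to the spread of most members than the stimuli did. Of the sum of squares of log2(FPM + 0.5) over the 42 libraries at 24 h, the mouse number took 65.1% for Dnajb9, 56.0% for Hsp90b1 and 52.4% for Pdia6, and the treatment 18.5%, 23.9% and 24.9%. Creld2 was the only member in which the share of the treatment (26.1%) was above that of the mouse (24.8%). In Calr, Pdia4 and Creld2 the largest part was left to neither, 45.6%, 48.4% and 49.1%.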
